A study of Mus musculus with 6 samples.

Results

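The transcripts of 79 nuclear genes that encode subunits of the mitochondrial respiratory chain were compared between MAPK13-inhibitors-treated and DMSO-treated CD4+ T cells of the mouse. The genes were taken by symbol from a count table of 35602 genes. A total of 82 symbols belonged to the *Nduf* subunit series, *Uqcr*, *Cyc1*, *Cox4* to *Cox8* or *Atp5*, and 79 of them had 10 or more counts in each of the 4 libraries of the table. The other 3, *Cox7b2*, *Cox8b* and *Cox8c*, had 0 counts in all 4 libraries, where 3 counts, the limit that a count of 0 allows, are worth 0.0886 to 0.112 CPM (counts scaled to a common library size). By their symbols, 38 of the 79 genes belong to complex I, 9 to complex III, 15 to complex IV and 17 to complex V.

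Complex I oxidizes NADH, complex III passes electrons from ubiquinol to cytochrome c, and complex IV hands them to oxygen. The proton gradient that these complexes build drives complex V, the ATP synthase. Activated T cells enlarge their mitochondria while they also raise glycolysis, and most respiratory chain subunits are made in the cytosol from nuclear genes and imported, whereas a small set is encoded by mitochondrial DNA. The 13 protein genes of mitochondrial DNA were not analysed here.

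The purified splenic CD4+ T cells were cultured under anti-CD3/CD28 stimulation, 72 h long by the study's account, with the kinase inhibitor MAPK13-IN-1 or with its solvent DMSO. Each group has 3 libraries in 2 library batches, a stranded mRNA kit having served for the replicate 1 pair and poly-T beads for replicates 2 and 3. The labels of replicates 2 and 3 give wild-type (WT) cells, 17.1 µM as the inhibitor dose and addition of inhibitor or DMSO after day 1, and those of the replicate 1 pair give tissue, cells and treatment but neither genotype nor dose. No label states strain or age, or that replicates came from separate mice or cultures, so p-values measure only the spread between these libraries, which may be technical. The DMSO libraries of replicates 2 and 3 held 26874805 and 28487403 counts, and the MAPK13-inhibitors libraries held 33854760 and 32617702. Only these 4 libraries were tested. The replicate 1 pair has length-normalized values, read here as FPKM, of unknown depth.

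Markers of the cells were compared first, since bulk RNA cannot tell fewer cells of a type from less RNA per cell. All 7 T cell markers in the table (*Cd3d*, *Cd3e*, *Cd3g*, *Cd4*, *Cd28*, *Cd5* and *Cd2*) were present, and 6 of them fell with the inhibitor (adjusted p-value under 0.05). The exception was *Cd4* itself, at 275 and 276 CPM with DMSO and at 267 and 283 CPM with the inhibitor. Their summed level was 1364 and 1372 CPM of the library total in the DMSO libraries and 837 and 943 CPM in the MAPK13-inhibitors libraries, with *Cd5* taking the most reads. B cell transcripts were present too, with all 10 markers in the table detected in each of the 4 libraries and *Pax5* taking the most reads. Of these 10, 7 were higher and 2 lower with the inhibitor, and the sum was 1095 and 1069 CPM with DMSO and 1375 and 1386 CPM with the inhibitor. In the replicate 1 pair the B cell sum was 52.3 FPKM (DMSO) and 36.5 FPKM (inhibitor), beside T cell sums of 1083 and 988 FPKM, and 9 of the 10 B cell markers were lower with the inhibitor. Erythroid markers summed to 7.52 and 7.09 CPM with DMSO and to 94.2 and 66.8 CPM with the inhibitor, with the most reads on the globin gene *Hbb-bs*, and 5 of the 6 tested were higher. For macrophage and monocyte markers the sums were 13.2 and 11.9 CPM with DMSO and 44.5 and 37.0 CPM with the inhibitor, with the most reads on *Cd68* and 5 of 7 tested higher. Dendritic cell markers summed to 43.1 and 43.5 CPM with DMSO and to 63.9 and 54.8 CPM with the inhibitor, with the most reads on *Zbtb46*, 4 of 5 tested higher and 1 lower. CD8 T and NK cell markers summed to 14.7 and 14.5 CPM with DMSO and to 11.5 and 13.6 CPM with the inhibitor, with the most reads on *Cd8b1*, 2 of 5 tested lower and 1 higher. Neutrophil markers did not exceed 0.981 CPM in sum, with the most reads on *Mpo*, *S100a9* at 0 in all 4 libraries and 1 of 1 tested higher. In the replicate 1 pair the CD8 T and NK cell sum was 4.78 FPKM (DMSO) and 14.5 FPKM (inhibitor), all 7 markers being higher. The macrophage and monocyte sum there was 3.01 and 9.76 FPKM, the dendritic cell sum 29.9 and 50.5 FPKM, the erythroid sum 0.928 and 1.93 FPKM and the neutrophil sum 0.661 and 0.425 FPKM. The part of these cell types in the results on the respiratory chain was not tested.

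Of the 79 subunit genes, 38 fell and 16 rose in MAPK13-inhibitors-treated cells. The test was the quasi-likelihood test of edgeR, its p-values adjusted by Benjamini-Hochberg over all 16269 genes tested, with a limit of 0.05. The other 25 did not pass. Changes were common in this comparison: 63.8% of all genes tested passed, 32.3% in the lower and 31.5% in the higher direction, against 68.4% of the subunit genes, 48.1% lower and 20.3% higher. The share that passed in either direction was therefore close to that of all genes, and the directions were divided differently. The median log2 fold change was −0.18 over the 79 genes and 0.01 over all genes tested. A fall of more than 2-fold was seen for 5 members (*Cox6a2*, *Cyc1*, *Uqcrq*, *Ndufa2* and *Ndufa11*) and the largest rise was 1.82-fold (*Uqcrh*), whereas 23.4% of all genes tested passed with more than a 2-fold change in either direction. The 2 libraries of each group lay apart in CPM for 69 members, 48 with the inhibitor below DMSO and 21 above, and overlapped for 10. That is 87.3% of the members, 60.8% below and 26.6% above, beside 83.0% of all genes tested, 41.4% below and 41.7% above, so lying apart was common to most genes here.

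The direction of the small changes depended on the scaling of the libraries. With library totals in place of the TMM factors, the median of all genes tested moved from 0.01 to 0.14, and 30 members were lower and 24 higher. The lower share of the called members was then 55.6% in place of 70.4%, beside 41.1% in place of 50.6% for all called genes. Such a change of scaling shifts all genes nearly alike. The median of the members minus that of all genes tested was −0.1965 with TMM and −0.1964 with library totals. With 10 counts in every library asked of all genes, as of the members, it was −0.138 beside 14166 genes. By complex it was then −0.274 (I), 0.00046 (III), −0.058 (IV) and −0.048 (V), in place of −0.332, −0.058, −0.117 and −0.106. Reads of the members took 0.774% and 0.778% of all counts in the DMSO libraries and 0.763% and 0.754% in the MAPK13-inhibitors libraries. The complexes went different ways in this share. In the same order of libraries, complex IV took 0.146%, 0.148%, 0.167% and 0.166%, and complex V 0.348%, 0.347%, 0.318% and 0.314%. Complex I took 0.198%, 0.200%, 0.194% and 0.190%, and complex III 0.0824%, 0.0824%, 0.0840% and 0.0832%.

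**Figure D1:**
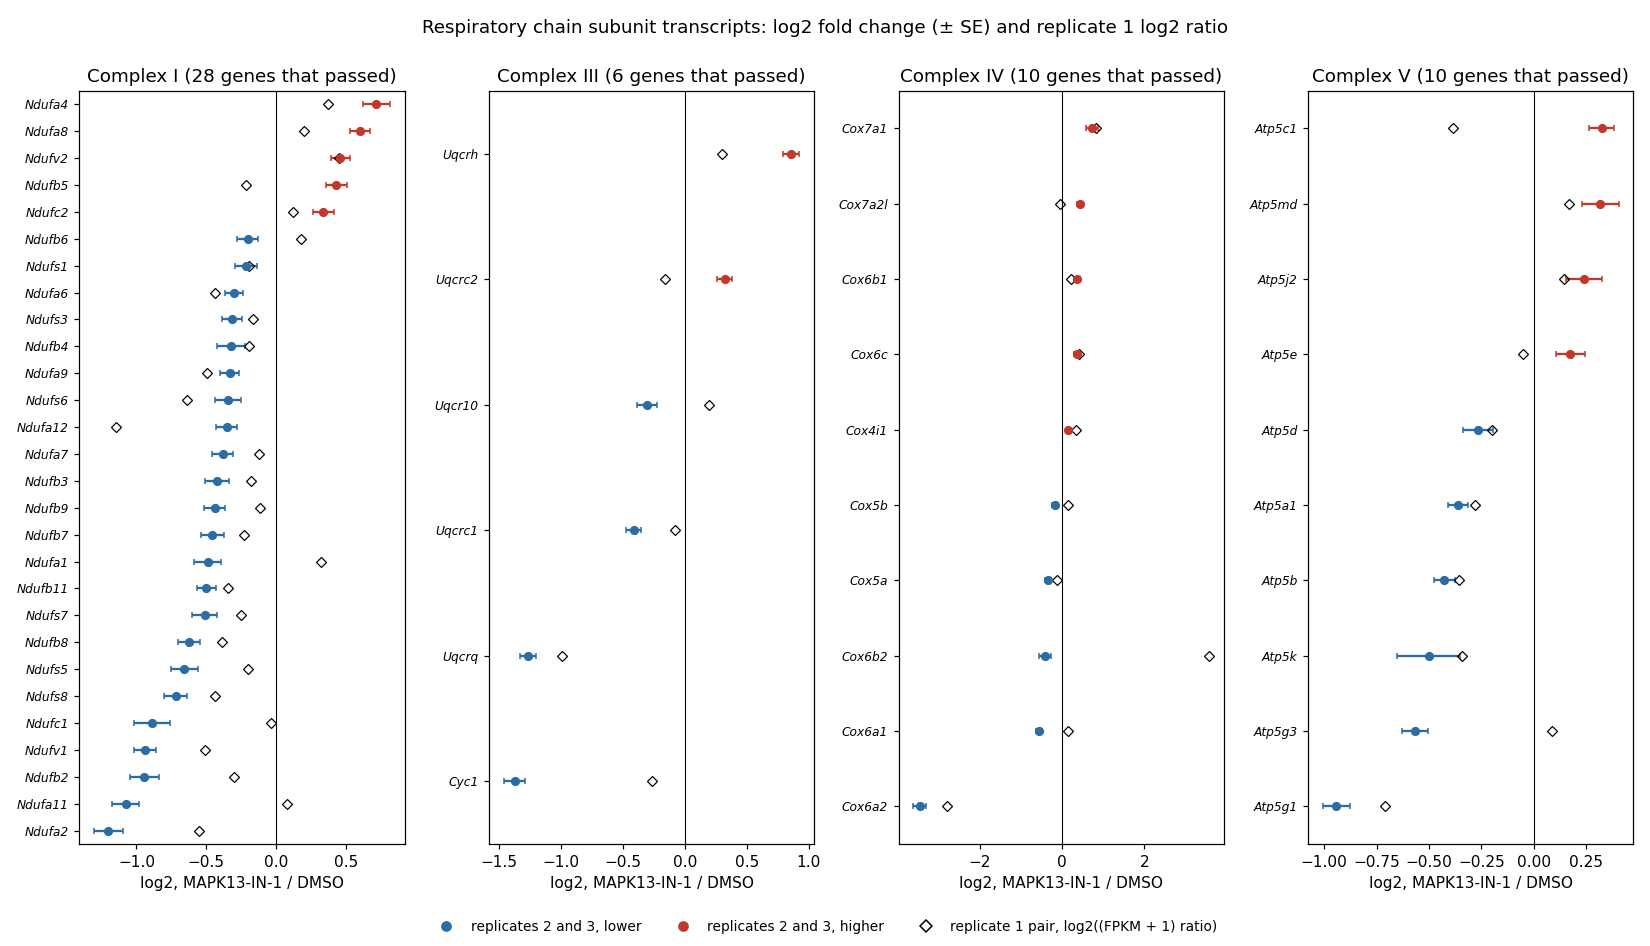
Log2 fold change with its standard error for the 54 subunit genes that passed in replicates 2 and 3 (filled circles, blue for lower and red for higher at an adjusted p-value under 0.05), and the log2 ratio of FPKM + 1 in the replicate 1 pair (open diamonds), by complex; the x axes differ in range. Most complex I genes shown lie left of 0, *Cox6a2* lies far left in both batches, and *Cox6b2* is at −0.42 in the count table and 3.58 in the replicate 1 pair.

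Complex I carried most of the falls. Of its 38 genes 23 fell (60.5%), 5 rose (13.2%) and 10 did not pass, with a median log2 fold change of −0.32. Among all genes tested 32.3% fell and 31.5% rose. By library totals 19 genes of complex I were lower and 8 higher, with a median of −0.20. The 7 core subunits, which form the matrix arm, were not uniform, as 5 fell, 1 rose and 1 did not pass. *Ndufv1*, which encodes the flavin-binding subunit where NADH is oxidized, was at 65.9 and 71.3 CPM with DMSO and at 34.4 and 37.2 CPM with the inhibitor. Both inhibitor libraries were below both DMSO libraries (log2 fold change −0.94 ± 0.08 SE, edgeR adjusted p = 3.26e-06). Its partner *Ndufv2*, another iron-sulfur subunit of the NADH-oxidizing module, went the other way. It was at 63.5 and 68.0 CPM with DMSO and at 93.4 and 87.4 CPM with the inhibitor, again without overlap (log2 fold change 0.46 ± 0.07 SE, edgeR adjusted p = 0.000212). The iron-sulfur subunits *Ndufs8* and *Ndufs7* fell by 0.72 and 0.51 on the log2 scale, and *Ndufs3* by 0.32. *Ndufs1*, the largest iron-sulfur subunit, was at 50.8 and 51.2 CPM with DMSO and at 46.2 and 41.6 CPM with the inhibitor, and its log2 fold change of −0.22 did not pass without DMSO replicate 2 (−0.23), without DMSO replicate 3 (−0.22) or without MAPK13-IN-1 replicate 3 (−0.15). It did not pass by upper-quartile scaling (−0.14), by library totals (−0.090), with 10 counts in every library (−0.17) or by DESeq2 (−0.21) either.

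Among the accessory subunits, which surround the core, 7 of 13 *Ndufa* genes fell and 2 rose, and 8 of 11 *Ndufb* genes, whose proteins sit in the membrane arm, fell and 1 rose. Of the other 7 accessory genes 3 fell and 1 rose. *Ndufa2*, an accessory subunit of the NADH-oxidizing module, was at 58.6 and 65.7 CPM with DMSO and at 24.5 and 29.6 CPM with the inhibitor, the largest fall in complex I (log2 fold change −1.20 ± 0.10 SE, edgeR adjusted p = 3.62e-06). The membrane arm gene *Ndufa11* followed, from 50.2 and 50.6 CPM to 21.7 and 26.1 CPM (log2 fold change −1.08 ± 0.10 SE, edgeR adjusted p = 5.51e-06), and *Ndufb2* was at 23.5 and 24.6 CPM with DMSO and at 12.1 and 12.9 CPM with the inhibitor. The groups did not overlap for any of these 3 genes. Rises were led by *Ndufa4*, which is named for complex I although its protein is a subunit of complex IV. It was at 36.1 and 42.6 CPM with DMSO and at 68.8 and 60.6 CPM with the inhibitor (log2 fold change 0.72 ± 0.10 SE, edgeR adjusted p = 9.31e-05). *Ndufa8*, an accessory subunit on the intermembrane space side, rose from 55.5 and 55.4 CPM to 88.3 and 79.7 CPM, and *Ndufb5* from 44.0 and 43.4 CPM to 61.4 and 56.3 CPM. All 3 genes were higher in both inhibitor libraries than in either DMSO library. With *Ndufa4* counted in complex IV instead, complex I had 23 lower and 4 higher genes and complex IV had 5 lower and 6 higher.

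**Figure D2:**
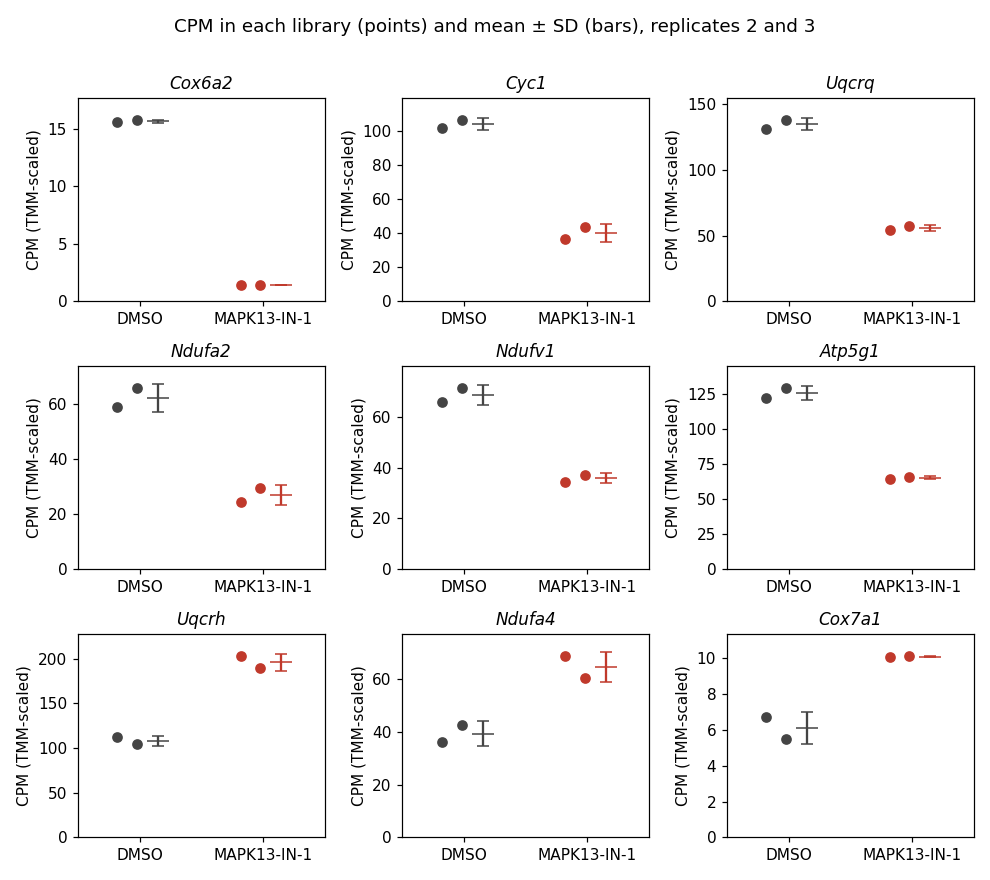
CPM scaled by TMM in each library of replicates 2 and 3 (points) with the mean and SD of each group (bars, n = 2), for the 6 fallen genes *Cox6a2*, *Cyc1*, *Uqcrq*, *Ndufa2*, *Ndufv1* and *Atp5g1* and the 3 risen genes *Uqcrh*, *Ndufa4* and *Cox7a1*; each y axis starts at 0. The groups do not overlap in any of the 9 panels, which holds for 83.0% of all genes tested, and *Cox6a2* goes from 15.6 and 15.7 CPM to 1.41 and 1.42 CPM.

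Complex III held members that moved in opposite directions, with an SD of log2 fold changes of 0.72, beside 1.20 over all genes tested. Of its 9 genes 4 fell (44.4%), 2 rose (22.2%) and 3 did not pass, beside 32.3% lower and 31.5% higher among all genes tested. The median of the 9 genes was −0.05. By library totals 3 were lower and 4 higher with a median of 0.08, and the median was also above 0 by upper-quartile scaling (0.034) and without MAPK13-IN-1 replicate 2 (0.027), and was −0.13 without MAPK13-IN-1 replicate 3. *Cyc1* encodes cytochrome c1, the heme protein that passes electrons on to cytochrome c. It was at 101 and 106 CPM with DMSO and at 36.5 and 43.6 CPM with the inhibitor, without overlap (log2 fold change −1.38 ± 0.09 SE, edgeR adjusted p = 5.33e-07). The Rieske iron-sulfur protein gene *Uqcrfs1*, the other catalytic subunit among these genes, was at 105 and 107 CPM with DMSO and at 107 and 114 CPM with the inhibitor and did not pass, except by library totals (0.18). *Uqcrq*, a small subunit near the ubiquinone-binding region, was at 131 and 138 CPM with DMSO and at 54.3 and 57.5 CPM with the inhibitor (log2 fold change −1.27 ± 0.07 SE, edgeR adjusted p = 1.60e-07). In contrast, *Uqcrh*, the hinge protein that bridges cytochrome c1 and cytochrome c, was at 112 and 104 CPM with DMSO and at 203 and 189 CPM with the inhibitor (log2 fold change 0.86 ± 0.06 SE, edgeR adjusted p = 1.59e-06), the largest rise among the 79 genes. The core proteins of complex III also divided, since *Uqcrc1* fell by 0.41 on the log2 scale and *Uqcrc2* rose by 0.32, although both were lower with the inhibitor in the replicate 1 pair (*Uqcrc2* at 74.2 and 66.2 FPKM). *Uqcr10* fell by 0.31, a change that did not pass without DMSO replicate 3 (−0.25) or by library totals (−0.18).

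In complex IV, cytochrome c oxidase, 5 of the 15 genes fell, 5 rose and 5 did not pass, with a median of −0.11. The 33.3% in each direction is near the 32.3% lower and 31.5% higher among all genes tested. By upper-quartile scaling 3 were lower and 6 higher, and by library totals 3 were lower and 6 higher with a median of 0.02. Several subunits of this complex have tissue isoforms. *Cox6a2*, the isoform of heart and skeletal muscle, had 401 and 428 reads counted with DMSO and 50 and 48 with the inhibitor, or 15.6 and 15.7 CPM against 1.41 and 1.42 CPM. This was the largest change among the 79 genes, with groups far apart (log2 fold change −3.47 ± 0.16 SE, edgeR adjusted p = 7.49e-08). The widely expressed isoform *Cox6a1* was at 125 and 131 CPM with DMSO and at 80.2 and 93.3 CPM with the inhibitor, a fall of smaller size (log2 fold change −0.56 ± 0.08 SE, edgeR adjusted p = 0.000101). *Cox7a1*, also a heart and muscle isoform, rose from 6.75 and 5.48 CPM to 10.1 and 10.1 CPM (log2 fold change 0.72 ± 0.15 SE, edgeR adjusted p = 0.00153). Its relatives were *Cox7a2*, at 79.2 and 77.9 CPM with DMSO and at 91.0 and 84.5 CPM with the inhibitor, which did not pass, and *Cox7a2l*, an isoform-like factor in supercomplexes of the respiratory chain, which rose by 0.42 on the log2 scale. The call of *Cox7a2* lay at the threshold, with a log2 fold change of 0.16 and edgeR adjusted p = 0.0539. It passed by RLE (0.17), upper-quartile scaling (0.24), library totals (0.29), 10 counts in every library (0.21), the replicate block (0.16), without MAPK13-IN-1 replicate 3 (0.21) and with the GC and length correction (0.22). In the replicate 1 pair it was lower with the inhibitor, at 97.2 and 59.8 FPKM.

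*Cox6b2*, the testis isoform of a cytochrome c-binding subunit, was at 10.2 and 9.71 CPM with DMSO and at 6.76 and 8.09 CPM with the inhibitor. Its log2 fold change of −0.42 passed (edgeR adjusted p = 0.0232), but not without DMSO replicate 2 (−0.40), without DMSO replicate 3 (−0.47) or without MAPK13-IN-1 replicate 2 (−0.30), nor by upper-quartile scaling (−0.34), library totals (−0.30) or DESeq2 (−0.41). The common isoform *Cox6b1* rose by 0.37. *Cox4i1*, the usual form of the regulatory subunit, was at 304 and 315 CPM with DMSO and at 339.6 and 344 CPM with the inhibitor, and its log2 fold change of 0.14 did not pass without DMSO replicate 2 (0.10) or without DMSO replicate 3 (0.16). *Cox4i2*, the form known from lung and low oxygen, was the member nearest to the count minimum, where 25 and 15 counts stood against 19 and 19 with the inhibitor. It did not pass (log2 fold change −0.46 ± 0.42 SE), and leaving out DMSO replicate 3 gave −0.83 where leaving out DMSO replicate 2 gave −0.023. *Cox5a* fell by 0.35 and *Cox6c* rose by 0.35, whereas *Cox7b* (−0.06, and 0.07 by library totals) and *Cox8a* (−0.11, and 0.02 by library totals) did not pass. *Cox8a* was at −0.20 without MAPK13-IN-1 replicate 3, where it passed, and at −0.025 without MAPK13-IN-1 replicate 2.

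In complex V, 6 of the 17 genes fell (35.3%), 4 rose (23.5%) and 7 did not pass, with a median of −0.09. These shares stand beside 32.3% lower and 31.5% higher among all genes tested, so the lower share was near theirs. By library totals 5 genes of complex V were lower and 6 higher with a median of 0.03. The catalytic β subunit gene *Atp5b* was at 1254 and 1255 CPM with DMSO and at 971 and 896 CPM with the inhibitor (log2 fold change −0.43 ± 0.05 SE, edgeR adjusted p = 4.25e-05). *Atp5a1*, the α subunit that alternates with it in the F1 head, fell by 0.36 on the log2 scale. *Atp5c1*, the γ subunit that turns inside the head, rose from 146 and 149 CPM to 191 and 178 CPM (log2 fold change 0.32 ± 0.06 SE, edgeR adjusted p = 0.000775). Thus 3 of the 5 F1 genes fell and 2 rose, whereas the 4 genes of the peripheral stalk, which holds the head still, had log2 fold changes from −0.09 to 0.04 and edgeR adjusted p from 0.172 to 0.708.

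The c-ring of complex V is made of copies of 1 protein whose mature form is encoded by all 3 *Atp5g* genes. *Atp5g1* was at 122 and 129.5 CPM with DMSO and at 64.9 and 66.1 CPM with the inhibitor, the largest fall in this complex (log2 fold change −0.94 ± 0.06 SE, edgeR adjusted p = 7.66e-07). *Atp5g3* was at 136 and 145 CPM with DMSO and at 94.4 and 94.9 CPM with the inhibitor (log2 fold change −0.57 ± 0.06 SE, edgeR adjusted p = 2.05e-05). For *Atp5g2* the values were 218 and 217 CPM with DMSO and 176 and 216 CPM with the inhibitor. Its 2 inhibitor libraries differed from each other more than the groups did, it did not pass, and its log2 fold change was −0.31 without MAPK13-IN-1 replicate 3, where it passed, and −0.0069 without MAPK13-IN-1 replicate 2. It also passed with the replicate block (−0.15). In the replicate 1 pair *Atp5g2* was lower with the inhibitor, at 331 and 188 FPKM. Its log2 ratio there was −0.81, beside −0.71 for *Atp5g1* and 0.088 for *Atp5g3*. Of the 5 small membrane subunits 1 fell and 2 rose. *Atp5k*, a subunit at the dimer interface, fell by 0.50, a change that did not pass without DMSO replicate 3 (−0.34). *Atp5md* and *Atp5j2* rose by 0.32 and 0.24 and did not pass without DMSO replicate 2 (0.29 and 0.13). *Atp5e*, the ε subunit of F1, rose by 0.18 and did not pass without DMSO replicate 2 (0.13), without DMSO replicate 3 (0.21) or without MAPK13-IN-1 replicate 2 (0.12), nor by DESeq2 (0.18) or with no filter on low counts (0.17). With DMSO replicate 2 left out, 1 gene of complex V was higher in place of 4.

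The replicate 1 pair came from the other library batch and has 1 library per group, so it gives no replicate check and no p-value. Over the 79 genes its median log2 ratio, inhibitor over DMSO on the scale of log2(FPKM + 1), was −0.13, beside 0.07 over the 15825 tested genes with values. A total of 51 members, or 64.6%, were below 0, beside 39.3% of those genes. By complex the medians were −0.17 in complex I, −0.16 in complex III, 0.19 in complex IV and −0.21 in complex V. Within complex I the 13 *Ndufa* genes had a median of 0.010 in this pair, 6 below 0 and 7 above, where the count table gave −0.30, and the 11 *Ndufb* genes had −0.19. Medians also differed in sign between the batches for the 5 small subunits of complex III (0.19 in this pair), the 5 alternative isoforms of complex IV (0.67), the 10 common subunits of complex IV (0.16) and the 5 membrane subunits of complex V (−0.13), and all 5 F1 genes were below 0. In the same order the count table gave −0.046, −0.42, −0.081 and 0.094, and complex IV as a whole had 0.02 by library totals. The 0.67 is the value of *Cox4i2*, at 0.133 and 0.798 FPKM. Of the 38 members that fell by counts, 30 were also below 0 in this pair and 8 were above, and of the 16 that rose 11 were above 0 and 5 below. As a share of members this is 38.0% lower in both and 13.9% higher in both, against 18.6% and 23.8% of all genes. Over the 79 genes the log2 values of the batches had a Pearson correlation of 0.48 and a Spearman correlation of 0.44, a description across genes that share libraries.

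Among single members, *Cox6a2* was at 22.5 FPKM in DMSO-treated cells and at 2.39 FPKM in MAPK13-inhibitors-treated cells, *Uqcrq* at 107 and 53.2 FPKM and *Atp5g1* at 119 and 72.3 FPKM. The differences of *Cyc1*, at 54.6 and 45.2 FPKM, and of *Ndufv1*, at 55.7 and 38.9 FPKM, were smaller in ratio than in the count table. *Uqcrh* was at 165 and 203 FPKM, *Ndufa4* at 123 and 159 FPKM, and *Cox7a1* at 2.03 and 4.36 FPKM, higher with the inhibitor as in replicates 2 and 3. *Ndufa11* was at 13.2 and 13.9 FPKM, where the count table had it more than 2-fold lower. The fallen genes *Cox6a1* (240.4 and 265 FPKM), *Atp5g3* (219.6 and 233 FPKM) and *Uqcr10* (141 and 161 FPKM) were also higher with the inhibitor here, as were *Cox5b*, *Ndufa1* and *Ndufb6*, named after their values were seen. The risen genes *Atp5c1* (139 and 106 FPKM), *Uqcrc2*, *Ndufb5* (50.8 and 43.5 FPKM), *Cox7a2l* (194 and 186 FPKM) and *Atp5e* (215 and 208 FPKM) were lower. *Cox6b2* stood at 6.72 FPKM in the DMSO library and at 91.0 FPKM in the other, whereas its counts in the other batch were 263 and 264 with DMSO and 240 and 274 with the inhibitor. *Ndufa12*, chosen after its values were seen, was at 35.3 and 15.4 FPKM. The 3 genes with no counts were at 0 FPKM in both libraries, except for *Cox8b* at 0.159 FPKM with DMSO.

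Levels of different genes can be set side by side only in the length-normalized values. In the DMSO library of replicate 1 they ran from 0.133 FPKM for *Cox4i2* to 671 FPKM for *Atp5b*. The median was 58.1 FPKM over complex I genes, 90.3 FPKM over complex III, 156 FPKM over complex IV and 154 FPKM over complex V. The usual isoforms stood above their tissue relatives, with *Cox6a1* at 240.4 FPKM and *Cox6a2* at 22.5 FPKM, and *Cox4i1* at 350.2 FPKM and *Cox4i2* at 0.133 FPKM. *Cox7a1* was at 2.03 FPKM, beside 97.2 FPKM for *Cox7a2* and 194 FPKM for *Cox7a2l*. The c-ring genes were at 331 FPKM for *Atp5g2*, 219.6 FPKM for *Atp5g3* and 119 FPKM for *Atp5g1*. With 1 library per group, neighbours in these orders cannot be told apart by a spread.

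The subunit genes share sequence features along which the fold changes of all genes shifted. Their transcripts are short, with a median of 651 bases beside 2039 bases over the genes tested, and have a median GC content of 52.5% beside 51.1%. In the count table, the median log2 fold change of all genes went from 0.14 in the lowest to −0.20 in the highest of 5 equal bins of GC content, and from −0.11 in the shortest to 0.08 in the longest of 5 bins of transcript length. The shortest bin holds 62 of the 79 members. The medians of the members over the bins of GC content, from lowest to highest, were 0.035, 0.059, −0.33, −0.16 and −0.46, lower at the high end but not in even steps. The Spearman correlation of log2 fold change with GC content was −0.31 over the 79 members and −0.16 over 14693 genes, and 0.04 for the members in the replicate 1 pair. The part of GC content and length in the results was not tested. With both corrected for, a setting chosen after seeing the data, 39 members were lower and 20 higher with a median of −0.16, beside −0.03 over all genes, and complex I had 24 lower and 8 higher.

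Copies and neighbours limit some of these counts. Of the 78 members with a protein-coding transcript in the annotation, 27 share more than 10% of their 50-base words with transcripts of other genes, and in 21 of these at least 1 other gene is a pseudogene. *Atp5l*, a membrane subunit of complex V chosen here after its values were seen, shares 84.8%. Exons of 24 members overlap exons of another protein-coding gene, among them *Cox6a2* with *Itgad*, *Ndufa2* with *Tmco6*, *Ndufa11* with *Vmac*, *Ndufb2* with *Braf*, *Ndufb5* with *Mrpl47* and *Uqcrc2* with *Pdzd9*. Whether counting used strand is not given in the sources used here, so reads of such pairs are uncertain. Exons of *Cyc1*, *Uqcrq*, *Uqcrh*, *Ndufa4*, *Ndufv1* and *Atp5g1* overlap those of no other protein-coding gene in this annotation. *Atp5g1* nonetheless shares 11.6% of its words with other genes and *Uqcrh* 7.83%, whereas *Cyc1*, *Uqcrq*, *Ndufa4* and *Ndufv1* share none.

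Promoters were searched for letters of 3 factors known to act on respiratory chain genes, on both strands of RefSeq windows from 250 bases before to 50 bases after the start (build GRCm38.p6). A total of 65 of the 79 members matched, with 70 windows. The letters GCGCATGC of NRF1 were in 9 of the 70 windows (12.9%, beside 2.71% of all 32851 windows), CCGGAAG of the ETS family, to which GABP belongs, in 15 (21.4%, beside 8.86%), and AAGATGGC of YY1 in 10 (14.3%, beside 2.75%). No matches of different motifs shared bases in the members' windows. At least 1 of the 3 was in 14 of 33 windows of members that fell (42.4%), in 6 of 14 of those that rose (42.9%) and in 9 of 23 of the rest (39.1%), beside 13.3% of all windows. Single motifs were less even. NRF1 and YY1 letters were each in 5 windows of members that fell (15.2%) and 1 of those that rose (7.14%). ETS letters were in 6 (18.2%) and 4 (28.6%). The 32851 windows belong to 27025 genes, more than the 16269 tested, so they include genes unlike the members in expression. A match is only a run of letters in the window.

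The 100 bases before the start are shown for 4 members, 1 that fell and 1 that rose for each of NRF1 and ETS, chosen after their values were seen, because the same letters stand in promoters of genes that moved in opposite directions. Capitals mark the NRF1 letters (overlapping matches on both strands in *Ndufa11*) or the ETS letters. *Ndufa11* fell and lies at chr17:56717662-56717761 on the plus strand, *Ndufa8* rose and lies at chr2:36049339-36049438 on the minus strand, *Ndufs3* fell and lies at chr2:90904722-90904821 on the minus strand, and *Uqcrh* rose and lies at chr4:116075071-116075170 on the minus strand.
Ndufa11: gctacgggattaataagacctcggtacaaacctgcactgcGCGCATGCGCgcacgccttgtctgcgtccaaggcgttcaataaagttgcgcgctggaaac
Ndufa8: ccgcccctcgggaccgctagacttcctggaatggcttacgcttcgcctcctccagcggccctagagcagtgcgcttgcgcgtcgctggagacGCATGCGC
Ndufs3: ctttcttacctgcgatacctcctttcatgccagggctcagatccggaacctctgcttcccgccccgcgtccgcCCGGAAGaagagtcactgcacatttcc
Uqcrh: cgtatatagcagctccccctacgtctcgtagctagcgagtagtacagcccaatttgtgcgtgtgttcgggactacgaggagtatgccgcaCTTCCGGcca

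Other genes of the pathway were described by count and median, beside the 32.3% of all genes that fell and the 31.5% that rose, and a gene said to have fallen or risen passed at an adjusted p-value under 0.05 in edgeR's test. Of the 4 genes of complex II, which feeds electrons from succinate into the chain, 3 fell (*Sdhb* by 0.70 and *Sdha* by 0.38 on the log2 scale) and *Sdhd* rose by 0.63. Of 14 genes of cytochrome c and coenzyme Q synthesis 8 fell and 1 rose, with a median of −0.66. *Cycs*, which encodes cytochrome c, the carrier between complexes III and IV, fell by 2.18 (in the replicate 1 pair it was at 45.7 and 39.4 FPKM, a log2 ratio of −0.21), and *Coq8b*, a kinase-like factor of coenzyme Q synthesis, by 1.31, whereas *Pdss2*, which makes the side chain of coenzyme Q, rose by 0.88.

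Assembly factors were measured for each complex. For complex I 10 of 16 fell (*Tmem186* by 1.04 and *Dmac1* by 0.95) and 5 rose (*Acad9* by 0.73 and *Ndufaf7* by 0.48), with a median of −0.58. For complex III 5 of 6 fell (*Uqcc2* by 1.02 and *Ttc19* by 0.84) and *Uqcc1* rose by 0.58, with a median of −0.79. The replicate 1 pair went the other way for this list, with a median log2 ratio of 0.12 and 4 of the 6 genes above 0, *Ttc19* at 0.19 among them. For complex IV 10 of 22 tested fell (*Coa3* by 1.17 and *Cox14* by 0.80) and 3 rose (*Cox20* by 0.75 and *Cox15* by 0.36), with a median of −0.13. For complex V 5 of 7 fell, led by *Fmc1* (1.53) and *Atpif1*, the inhibitor protein of the ATP synthase (1.52), and *Tmem242* and *Tmem70* rose by 0.44 and 0.20, with a median of −0.48.

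Of 17 regulators of mitochondrial biogenesis 9 fell and 4 rose, with a median of −0.35. *Twnk*, the helicase of mitochondrial DNA, fell by 1.28 and the coactivator *Pprc1* by 1.08, and the transcription factor *Yy1* rose by 0.44 and *Polg2*, a subunit of the mitochondrial DNA polymerase, by 0.81. Of the other factors whose letters were searched, *Nrf1* fell by 0.40 and *Gabpa* by 0.48, whereas *Gabpb1*, the partner of *Gabpa*, was at 0.11 and did not pass. These 3 genes were picked with their values known. Among 25 protein import and chaperone genes 14 fell (*Timm13* by 1.45 and *Hspa9* by 0.89) and 6 rose (*Tomm34* by 0.35 and *Hspe1* by 0.27), with a median of −0.37. Among 18 genes of the TCA cycle, which include those of complex II, 14 fell (*Idh3g* by 0.92 and *Mdh2* by 0.80) and 3 rose (*Sdhd* by 0.63 and *Idh3b* by 0.35), with a median of −0.38. Of 78 mitochondrial ribosomal protein genes 40 fell (*Mrps2* by 1.69 and *Mrpl17* by 1.61) and 11 rose (*Mrps6* by 1.29 and *Mrpl9* by 0.73), with a median of −0.28. Of 96 tested genes with symbols of cytosolic ribosomal proteins 65 fell (*Rps12* by 0.71) and 5 rose, with a median of −0.21. Of those that rose, *Rpl41* rose by 0.24, and *Rps6ka2*, which rose by 1.96, encodes a kinase and not a ribosomal protein. Without such kinase and binding protein genes 61 of 86 fell and 4 rose.

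In the replicate 1 pair the median log2 ratios of the other pathway lists were below 0, beside 0.07 over all genes tested. They were −0.24 for complex II, −0.18 for cytochrome c and coenzyme Q synthesis, and −0.15, −0.084 and −0.26 for the assembly factors of complexes I, IV and V, where 12 of the 23 genes for complex IV were below 0 and 11 above. For the regulators of biogenesis the median was −0.18, for protein import −0.17, for the TCA cycle −0.22, for mitochondrial ribosomal proteins −0.21 and for cytosolic ribosomal proteins −0.13. Many of the genes named above from these lists had the opposite sign in that pair. Besides *Ttc19*, log2 ratios above 0 were found for the fallen genes *Tmem186* (0.0065), *Coa3* (0.32), *Mrps2* (0.048), *Mrpl17* (0.00068) and *Rps12* (0.39). Below 0 were the risen genes *Sdhd* (−0.049), *Pdss2* (−0.34), *Ndufaf7* (−0.14), *Cox15* (−0.11), *Cox20* (−0.41), *Tmem242* (−0.26), *Polg2* (−0.19), *Idh3b* (−0.22), *Mrpl9* (−0.13) and *Rpl41* (−0.36).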

How the data were processed

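RNA-seq of CD4+ T cells was analysed in 3 libraries per group. The submitters' processing notes name fastp 0.21.0, HISAT2 2.1.0, StringTie 2.1.5 and DESeq2 1.30.1 on mm10 for replicates 2 and 3, and FastQC and HISAT2 without versions for the replicate 1 pair. For replicates 2 and 3 the authors deposited raw counts per gene, and for the replicate 1 pair they deposited 1 normalized value per gene, read as FPKM from the values, since no source names the unit.

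Counts were compared 2 libraries against 2 with edgeR 4.0.16 in R 4.3.3 (TMM, filterByExpr with a minimum count of 10, quasi-likelihood test, Benjamini-Hochberg adjustment over 16269 genes, all 79 subunit genes among them). CPM are scaled by TMM, except sums over markers and the limit for a count of 0, which use library totals. Counts of 26874805 to 33854760 per library set the precision. The replicate 1 pair was not tested, and its log2 ratios use a pseudocount of 1, which understates changes of low genes. The members and lists were chosen with earlier results of these data known. Names were taken from, in each complex, the 4 largest significant rises and falls, catalytic subunits, isoform groups and *Ndufa4*, and from each pathway list the 2 smallest p-values in each direction. GC content, length, exon overlap and shared words came from GENCODE M21, whose symbols, with RefSeq synonyms, matched all 79 subunit genes and 90.3% of genes tested. Alternatives were RLE, upper-quartile and library-total scaling, other count filters, a replicate block, DESeq2 1.42.0, each library left out, a threshold of 0.01, other member rules and, added after seeing the data, a GC and length correction.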

Additional observations from a re-analysis of the deposited data

How the results depend on the processing

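Of 516 values of 43 subunit genes taken by the rule for names under 12 alternatives of the count fit, 470 kept their direction and side of the threshold, 25 lost the call, 16 gained it and 5 reversed, all 5 of genes that had not passed. These were *Cox7b* (0.023 by upper-quartile scaling and 0.068 by library totals), *Cox8a* (0.020 by library totals and 0.014 with the GC and length correction) and *Uqcrfs1* (−0.0043 with that correction). The replicate block gave 39 lower and 17 higher members and 10645 genes called in all. Same-numbered libraries shared only a number, with a correlation of −0.0064 between their deviations over 16269 genes.

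By upper-quartile scaling the median log2 fold change was −0.10 over all members, −0.24 in complex I, −0.025 in complex IV and −0.014 in complex V, with 3 lower genes in complex IV. By library totals the medians were −0.060 over all members, −0.20 in complex I, 0.079 in complex III, 0.020 in complex IV and 0.031 in complex V, with 8 higher genes in complex I, 4 higher in complex III and 3 lower in complex IV. RLE gave −0.31 in complex I. With at least 10 counts in every library, which leaves fewer genes, the medians were −0.14 over all members, −0.28 in complex I, −0.060 in complex IV and −0.050 in complex V. DESeq2 and a threshold of 0.01 each left 3 lower genes in complex IV, and the threshold 2 higher in complex V. With the GC and length correction, chosen after seeing the data, the medians were −0.27 in complex I, −0.080 in complex IV and 0.00012 in complex V, with 8 higher genes in complex I. With each library left out in turn, where a lone library is assumed to vary like the other group, the median ran from −0.22 to −0.17 over all members, from −0.32 to −0.29 in complex I, from −0.13 to 0.027 in complex III and from −0.12 to −0.039 in complex V, and 3 to 6 genes of complex IV were lower and 1 to 5 of complex V higher. The cause of these shifts was not tested. The groups did not vary alike, as the median chi-square of a library against its other replicate was 1.02 with DMSO and 2.16 with the inhibitor. With an inhibitor library left out, the spread between replicates is taken from the DMSO libraries alone. The log2 fold changes moved as well, that of *Atp5g2* from −0.15 to −0.31 without MAPK13-IN-1 replicate 3 and to −0.0069 without MAPK13-IN-1 replicate 2. The part of each in the calls was not tested. In the replicate 1 pair the median over all members was −0.13 with a pseudocount of 0.1 and −0.15 with a minimum of 1 FPKM, and the median of each complex kept its sign under both. *Cox4i2*, with 15 to 25 counts, had the lowest counts of the members.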
